A study of Mus musculus with 2 samples.

Results

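Germ cells use a set of genes that other tissues keep off: the PIWI proteins and their partners, which make and use piRNAs, and the proteins that pair and recombine chromosomes in meiosis. A set of 37 such germline, meiosis and piRNA pathway genes was followed in mouse pro-B cells, the B cell precursors of the bone marrow. The genes were chosen by name and found through their Ensembl transcripts, with low values kept. All 37 were listed, with 101 transcripts, among 37055 named genes and 89664 named transcripts in all.

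PIWI proteins are germline Argonaute proteins that carry piRNAs, short RNAs directed mainly against transposons. Tudor domain proteins dock on methylated arginines of the PIWI proteins and bring the other factors together. In meiosis, homologous chromosomes are held by a protein axis and the synaptonemal complex, with cohesin subunits of their own, while SPO11 cuts DNA and DMC1 helps to repair it from the homologue. Many of these genes have promoters rich in CG dinucleotides and are kept off in somatic cells by DNA methylation and by chromatin complexes, among them PRC1.6, a Polycomb complex that holds E2F6, MGA and MAX.

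Cultured pro-B cells of 2 genotypes were compared, Setdb1 Δ/Δ with 1 library and Setdb1 C/C with 1 library. SETDB1 is a histone H3 lysine 9 methyltransferase. Both cultures were bcl2 transgenic; the cells were sorted from bone marrow by flow cytometry and grew for 4 days in medium with 5 ng/µl of interleukin 7. Ribosomal RNA was depleted from total RNA before paired-end sequencing of 101 bases. The labels do not say how the deletion was made, which exons it removes, which promoter drives the transgene, the animals' age, sex or strain, or how many animals gave the cells. Every difference is one between 2 libraries and has no replicate check, so no p-value is given.

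The libraries held 193.3 M reads (Δ/Δ; M, mega) and 170.6 M reads (C/C), recovered from the deposited RPKM values (reads per kilobase of transcript, scaled to depth). Setdb1 itself measured 12.6 RPKM in Δ/Δ and 17.0 RPKM in C/C over the whole transcript, a ratio of 0.743, so the gene-level value does not by itself mark the deletion. B lineage markers summed to 3288 RPKM in Δ/Δ and 4660 RPKM in C/C over 10 genes, none of them at 0, and 4 of 10 were at least 2-fold lower in Δ/Δ. Myeloid markers summed to 225 RPKM in Δ/Δ and 21.9 RPKM in C/C, with 8 of 10 at least 2-fold higher and Mpo and Elane listed at 0 in C/C. Erythroid and platelet markers summed to 62.4 RPKM in Δ/Δ and 7.37 RPKM in C/C (7 of 8 higher, 1 lower). T cell markers summed to 59.6 RPKM in Δ/Δ and 24.0 RPKM in C/C (5 of 5 with enough reads higher). Most of the T cell sum was Thy1, at 55.7 RPKM in Δ/Δ and 23.7 RPKM in C/C. Mast cell and basophil markers summed to 4.19 RPKM in Δ/Δ and 4.42 RPKM in C/C (3 of 4 higher), with Kit at 2.24 RPKM in Δ/Δ and 4.42 RPKM in C/C and 4 of the other 5 markers listed at 0 in C/C and above 0 in Δ/Δ. Natural killer markers summed to 2.08 RPKM in Δ/Δ and 1.75 RPKM in C/C (1 of 3 higher). The part of these cell types in the results below was not tested, and in a bulk library fewer cells of a type and less RNA per cell cannot be told apart. Xist measured 23.7 RPKM in Δ/Δ and 0.094 RPKM in C/C, and 4 Y-linked genes lay between 0 and 0.017 RPKM in Δ/Δ and between 5.37 and 22.3 RPKM in C/C, so genotype and sex cannot be told apart. None of the 37 members lies on the X or Y chromosome.

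Markers of gonad cells were at 0 or were not called higher in Δ/Δ by a 2-fold rule. The testis somatic markers Sox9 and Cyp17a1 were listed at 0 in both libraries, and the 5 markers summed to 9.17 RPKM in Δ/Δ and 8.78 RPKM in C/C, most of it Insl3 (8.28 RPKM in Δ/Δ and 7.54 RPKM in C/C). The oocyte markers Zp3, Bmp15 and Figla were listed at 0 in both. The sperm markers summed to 0.402 RPKM in Δ/Δ and 1.56 RPKM in C/C, with Tnp1 and Acrv1 at 0 in both libraries. Most of it was Prm1, which was called lower at 0.298 RPKM in Δ/Δ and 1.44 RPKM in C/C, a ratio of 0.207.

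Each gene was represented by its transcript of highest mean RPKM, and gene positions are those of GENCODE M21 on GRCm38. A gene was called when it had 20 reads or more over both libraries and its RPKM in Δ/Δ was at least 2-fold above (higher) or below (lower) that in C/C. Of the 37 members, 18 had 20 reads or more, and 13 of them were called higher in Δ/Δ, 0 lower and 5 neither. Among all 17389 genes with as many reads, 11.4% were called higher and 12.1% lower. Among protein-coding genes with a mean under 1 RPKM the background was 26.6% higher and 22.6% lower, and 12 of the 13 members at such levels were called higher and 0 lower. The member counts do not measure a tendency of the set, because the genes were proposed with results of these libraries in view. In addition, 10 of the 18 members had fewer than 20 reads in C/C and reached the minimum through their Δ/Δ reads, and the other 8 had 20 or more in C/C alone. Of the 13 called higher, 3 were among those 8.

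On the stricter scale of log2(RPKM + 0.5), which needs 1 RPKM in at least 1 library and understates the change of low genes, 7 members were measured. Fkbp6, Rnf17 and Tdrkh were called higher, 0 members were called lower and 4 were neither, against 6.29% higher and 6.67% lower of all 12563 genes measured. The 4 that were neither (Stag3, Zcwpw1, Spo11 and Prdm9) were the only members at 1 RPKM or more in C/C. The 3 called higher were measured on this scale through their Δ/Δ values alone, so this count measures no tendency of the set either. Over the transcripts that stand for the genes, 28 of the 37 members had at least 1 read in Δ/Δ, against 24 of the 37 in C/C, where Meioc had reads on another transcript.

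**Figure D1:**
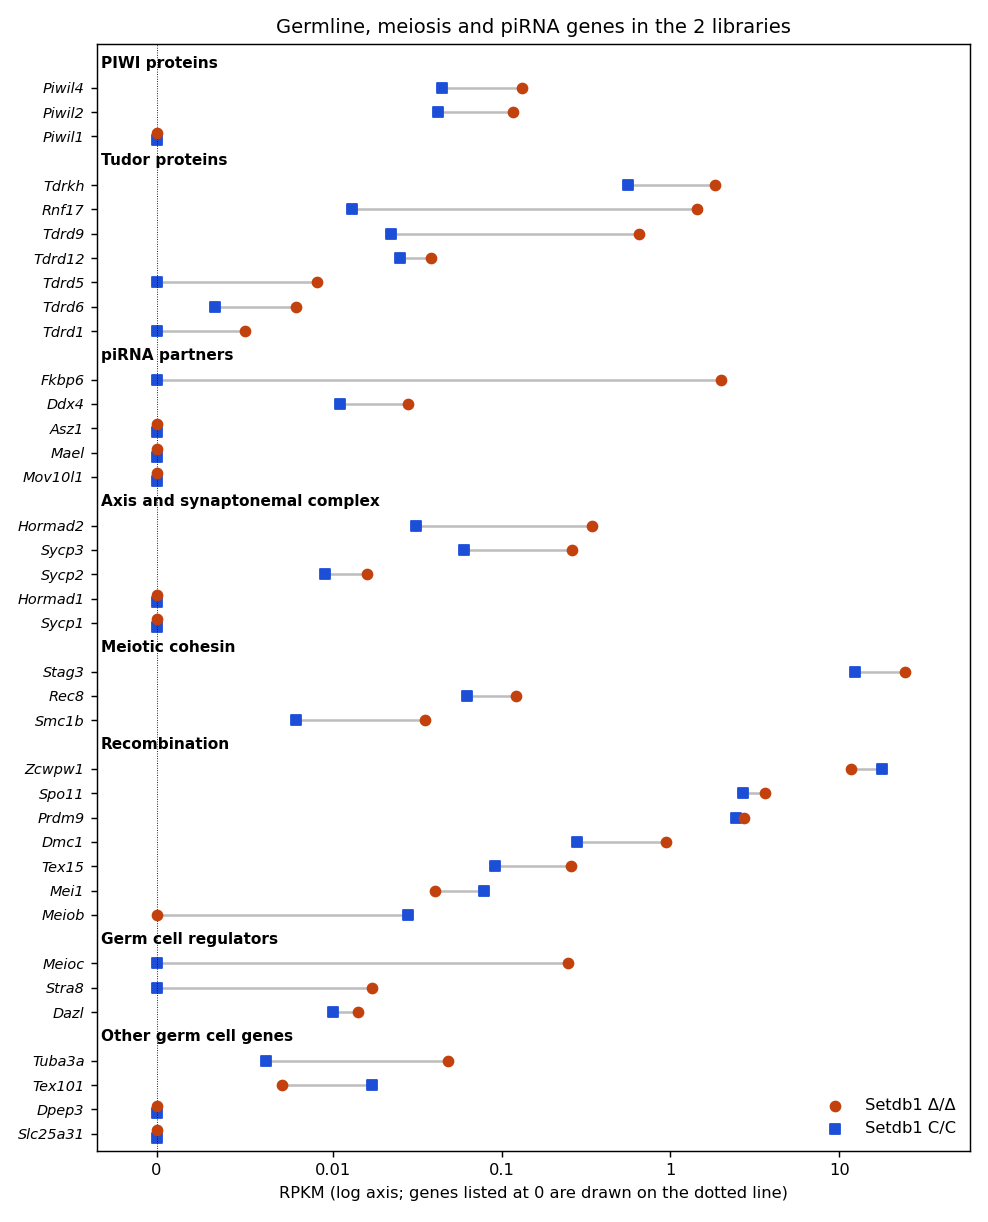
RPKM of the 37 members in Setdb1 Δ/Δ (circles) and Setdb1 C/C (squares), 1 library each, grouped by role, on a log axis with values of 0 on the dotted line. Circles lie to the right of squares for most members with reads, Zcwpw1, Mei1, Meiob and Tex101 lie the other way, and 8 members sit at 0 in both.

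The promoters of the members are shown for those on which the results turn, as 300-base windows from 250 bases before to 50 bases after a start site, from RefSeq (GRCm38.p6). Windows were found for 31 members. Rnf17, Piwil2, Tdrd6, Tex15, Meiob and Spo11 had no entry. The window used lies nearest the start of the longest protein-coding transcript, at a distance of 12479 bases for Mei1 and 785 bases for Stra8. Capitals mark matches, on either strand, to CACGTG, the E-box that MAX dimers can bind, and to GCGGGAA, a form of the E2F site. A longer E2F form, GCGCGAAA, was also searched, and no member window held it. No match of one motif overlaps one of another, and a GCGGGAA match on the other strand reads TTCCCGC. Fkbp6 lies at chr5:135349995-135350294 (minus strand), Tdrd9 at chr12:111971309-111971608 (plus), Tdrkh at chr3:94412994-94413293 (plus) and Sycp3 at chr10:88459337-88459636 (plus). Hormad1 lies at chr3:95559427-95559726 (plus), Stag3 at chr5:138280259-138280558 (plus), Smc1b at chr15:85131908-85132207 (minus) and Dmc1 at chr15:79605060-79605359 (minus). Fkbp6, Tdrd9, Tdrkh, Sycp3, Smc1b and Dmc1 were called higher, Stag3 stood at the edge of the call, and Hormad1 was listed at 0 in both libraries.
Fkbp6: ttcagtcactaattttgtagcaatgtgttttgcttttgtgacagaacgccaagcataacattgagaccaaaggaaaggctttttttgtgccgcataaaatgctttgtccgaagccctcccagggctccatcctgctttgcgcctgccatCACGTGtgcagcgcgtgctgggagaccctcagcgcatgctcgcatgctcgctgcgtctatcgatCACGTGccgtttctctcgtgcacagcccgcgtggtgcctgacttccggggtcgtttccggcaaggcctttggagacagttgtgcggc
Tdrd9: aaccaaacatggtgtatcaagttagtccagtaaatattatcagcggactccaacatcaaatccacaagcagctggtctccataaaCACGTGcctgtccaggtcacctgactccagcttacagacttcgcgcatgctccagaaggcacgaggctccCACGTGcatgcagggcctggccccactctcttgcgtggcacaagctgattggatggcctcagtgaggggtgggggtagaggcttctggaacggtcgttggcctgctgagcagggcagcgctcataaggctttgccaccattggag
Tdrkh: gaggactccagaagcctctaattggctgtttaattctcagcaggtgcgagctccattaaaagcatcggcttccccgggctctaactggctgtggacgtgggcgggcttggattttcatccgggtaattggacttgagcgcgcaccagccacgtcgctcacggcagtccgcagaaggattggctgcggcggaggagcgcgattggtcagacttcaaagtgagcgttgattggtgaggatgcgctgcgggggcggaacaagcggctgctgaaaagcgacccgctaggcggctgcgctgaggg
Sycp3: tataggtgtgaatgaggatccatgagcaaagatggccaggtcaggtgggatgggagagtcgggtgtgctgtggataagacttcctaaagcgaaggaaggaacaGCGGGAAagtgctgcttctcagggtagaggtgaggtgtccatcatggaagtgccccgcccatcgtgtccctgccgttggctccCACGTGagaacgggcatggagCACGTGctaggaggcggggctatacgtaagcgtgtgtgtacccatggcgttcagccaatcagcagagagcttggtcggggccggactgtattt
Hormad1: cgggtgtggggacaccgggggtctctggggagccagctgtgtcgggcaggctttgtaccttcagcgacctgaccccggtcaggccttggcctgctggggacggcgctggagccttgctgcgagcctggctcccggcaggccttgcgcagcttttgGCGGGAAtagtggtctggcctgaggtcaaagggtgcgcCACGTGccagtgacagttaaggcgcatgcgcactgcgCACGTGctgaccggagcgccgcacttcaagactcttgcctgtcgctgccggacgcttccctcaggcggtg
Stag3: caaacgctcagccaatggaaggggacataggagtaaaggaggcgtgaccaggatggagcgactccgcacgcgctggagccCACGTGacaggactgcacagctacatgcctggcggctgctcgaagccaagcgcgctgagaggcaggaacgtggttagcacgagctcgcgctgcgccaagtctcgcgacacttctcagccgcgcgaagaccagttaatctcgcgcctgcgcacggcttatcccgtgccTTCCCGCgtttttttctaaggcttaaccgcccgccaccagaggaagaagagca
Smc1b: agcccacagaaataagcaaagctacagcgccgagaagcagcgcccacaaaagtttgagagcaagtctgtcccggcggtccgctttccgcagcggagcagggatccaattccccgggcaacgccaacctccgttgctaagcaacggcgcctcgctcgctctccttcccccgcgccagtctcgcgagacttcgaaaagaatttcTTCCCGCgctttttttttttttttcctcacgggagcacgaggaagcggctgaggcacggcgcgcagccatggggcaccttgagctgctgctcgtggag
Dmc1: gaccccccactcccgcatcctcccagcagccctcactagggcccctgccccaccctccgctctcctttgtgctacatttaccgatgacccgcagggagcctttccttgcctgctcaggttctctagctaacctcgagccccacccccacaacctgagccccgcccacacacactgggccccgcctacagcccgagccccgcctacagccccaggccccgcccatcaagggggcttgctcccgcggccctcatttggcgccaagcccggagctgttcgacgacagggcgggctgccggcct

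The windows of Fkbp6 and Tdrd9 each held 2 CACGTG matches, at bases 150 to 155 and 214 to 219 of the Fkbp6 window and at bases 86 to 91 and 156 to 161 of the Tdrd9 window, counted from the 5′ end. The Sycp3 and Hormad1 windows both held 2 CACGTG matches and 1 GCGGGAA match, although Sycp3 had reads in both libraries and Hormad1 had none in either. The Stag3 window held 1 of each motif, the Smc1b window 1 GCGGGAA match, and the Tdrkh and Dmc1 windows held neither.

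Among all 32851 mouse windows, 7.15% held CACGTG, 4.60% held GCGGGAA, 0.323% held GCGCGAAA and 11.6% held any of the 3. Of the 31 member windows, 11 held CACGTG, 9 held GCGGGAA and 15 held either. Both motifs hold a CG, and all windows had a median of 7 CG against 18 in member windows. The shares were not matched for base content, so an excess of either motif was not tested. Of the 10 windows of members called higher, 4 held CACGTG (Fkbp6, Tdrd9, Sycp3 and Ddx4), 4 held GCGGGAA (Sycp3, Ddx4, Smc1b and Meioc) and 6 held either. The 8 members listed at 0 in both libraries had CACGTG in 6 windows and GCGGGAA in 2. The matches were present both in members called higher and in members with no reads, and binding was not measured here.

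CG dinucleotides numbered 19.5 per window at the median in members called higher (10 to 38) and 20.5 in members listed at 0 in both (12 to 24). The median over all 31 member windows was 18, and over all mouse windows it was 7, with quartiles at 3 and 20. The lowest member count was 3, in Tdrd1, and the highest was 48, in Tdrd5, and neither gene had more than 5 reads in a library.

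**Figure D2:**
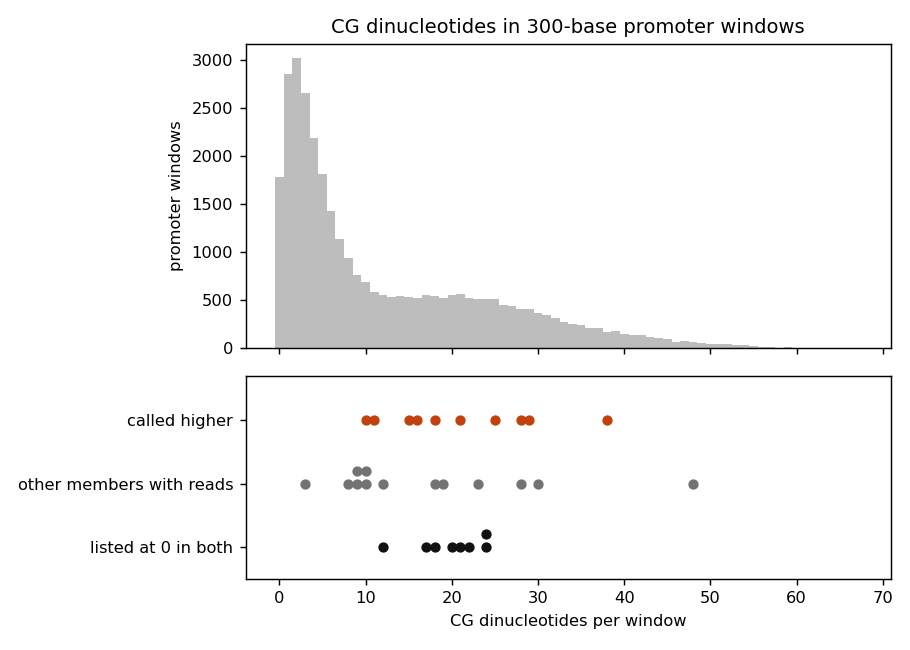
CG dinucleotides per 300-base promoter window, for all 32851 windows (upper panel, bars) and for 31 member windows by call (lower panel, points). Members called higher span 10 to 38 and members listed at 0 in both span 12 to 24, and most members lie above the median of 7 of all windows.

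PIWI proteins were at low levels. Piwil4, which acts in the nucleus of male germ cells, measured 0.132 RPKM in Δ/Δ and 0.044 RPKM in C/C (54 reads in Δ/Δ and 16 in C/C), a ratio of 3.0. The 95% interval of that ratio ran from 1.32 to 7.59 and, like all intervals here, covers counting error only. Piwil2, which loads piRNAs in the cytoplasm, measured 0.116 RPKM in Δ/Δ and 0.042 RPKM in C/C (110 reads in Δ/Δ and 35 in C/C), a ratio of 2.76 (1.56 to 4.88). Both were called higher in Δ/Δ. Piwil1, which serves later male germ cells, was listed at 0 in both libraries.

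Of the 7 Tudor protein genes, 3 had 20 reads or more, and these 3 were called higher in Δ/Δ, against 11.4% of all genes. Of the 3, Rnf17 and Tdrd9 had fewer than 20 reads in C/C and reached the minimum through their Δ/Δ reads. Rnf17, a Tudor and RING finger protein of male germ cells (ENSMUST00000095793, chr14:56402581-56525032), measured 1.44 RPKM in Δ/Δ and 0.013 RPKM in C/C. These values rest on 1463 reads in Δ/Δ and 12 in C/C, and the ratio was 111 (49.3 to 295). Tdrd9, a putative helicase with a Tudor domain needed to silence LINE-1 elements in mouse testis (ENSMUST00000079009, chr12:111971559-112068854), measured 0.655 RPKM in Δ/Δ and 0.022 RPKM in C/C. Its 609 reads in Δ/Δ and 18 in C/C gave a ratio of 29.8 (15.6 to 66.1). Tdrkh, a mitochondrial partner of the PIWI proteins in piRNA trimming (ENSMUST00000045245), was present in both libraries, at 1.84 RPKM in Δ/Δ and 0.557 RPKM in C/C. Its ratio of 3.29 (2.69 to 4.03) came from 937 reads in Δ/Δ and 251 in C/C, the most in C/C of any member called higher.

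The other 4 Tudor genes had too few reads for a call. Tdrd12 measured 0.038 RPKM in Δ/Δ and 0.025 RPKM in C/C (12 reads in Δ/Δ and 7 in C/C), and Tdrd6, a scaffold of the germ cell chromatoid body, 0.006 RPKM in Δ/Δ and 0.002 RPKM in C/C (8 reads in Δ/Δ and 2 in C/C). Tdrd5 had 5 reads in Δ/Δ and 0 in C/C, and Tdrd1 3 reads in Δ/Δ and 0 in C/C. No difference in these 4 could be called at this depth, where 3 reads on a transcript of 2 kilobases amount to 0.0078 RPKM in Δ/Δ and 0.0088 RPKM in C/C.

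Among the other piRNA factors, Fkbp6 stood apart. Fkbp6 encodes a co-chaperone that works with HSP90 when PIWI proteins are loaded with piRNAs (ENSMUST00000044972, chr5:135291704-135350044). It measured 1.99 RPKM in Δ/Δ with 555 reads and was listed at 0 in C/C. That was 163-fold higher in Δ/Δ against a floor of 3 reads in C/C, which is not a counting interval. Ddx4, the germ cell RNA helicase also called VASA, measured 0.028 RPKM in Δ/Δ and 0.011 RPKM in C/C (15 reads in Δ/Δ and 5 in C/C). Its ratio of 2.55 passed the 2-fold rule, but the interval of 0.565 to 13.8 included 1, alone among the 11 members called higher with reads in both libraries. Mael, Mov10l1 and Asz1, which act in piRNA production and transposon silencing, were listed at 0 in both libraries.

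Relatives of the members, most of them widely expressed, were read beside them. Of 27 such genes, 24 had 20 reads or more, which Tuba3b (listed at 0 in both libraries), Zcwpw2 and Dpep1 did not. Of the 24, 3 were called higher in Δ/Δ, 0 lower and 21 neither, against the same 11.4% and 12.1%. Fkbp4, an HSP90 co-chaperone of somatic cells, measured 220 RPKM in Δ/Δ and 223 RPKM in C/C, and Fkbp5 13.4 RPKM in Δ/Δ and 15.6 RPKM in C/C. Ago2, an Argonaute of the microRNA pathway, measured 5.54 RPKM in Δ/Δ and 6.63 RPKM in C/C, and Ago3 1.98 RPKM in Δ/Δ and 1.64 RPKM in C/C. None of these 4 was called. Ddx3x, a relative of Ddx4, measured 169 RPKM in Δ/Δ and 129 RPKM in C/C, Dhx9, a helicase paired with Tdrd9, 17.0 RPKM in Δ/Δ and 11.4 RPKM in C/C, and Tdrd3 9.09 RPKM in Δ/Δ and 10.9 RPKM in C/C, again without a call. Snd1, a widely expressed Tudor nuclease, was called higher at 172 RPKM in Δ/Δ and 67.3 RPKM in C/C, a ratio of 2.56 (2.44 to 2.68). The Snd1 values come from a non-coding transcript of 392 bases. The other 2 called higher were Boll, a relative of Dazl that is itself a germ cell gene (0.956 RPKM in Δ/Δ and 0.272 RPKM in C/C), and Dpep2, a relative and neighbour of Dpep3 (0.730 RPKM in Δ/Δ and 0.034 RPKM in C/C).

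Of the 5 genes of the chromosome axis and synaptonemal complex, 2 had 20 reads or more. Both were called higher, against 11.4% of all genes, and both reached the minimum through their Δ/Δ reads. Hormad2, a HORMA domain protein of unsynapsed axes (ENSMUST00000109949, chr11:4345814-4441105), measured 0.343 RPKM in Δ/Δ and 0.031 RPKM in C/C. Its 89 reads in Δ/Δ and 7 in C/C gave a ratio of 11.1 (3.62 to 38.0), and its 4 transcripts with 20 reads or more ran from 5.33 to 18.6. Sycp3, a core protein of the axis (ENSMUST00000125612, chr10:88459569-88473236), measured 0.261 RPKM in Δ/Δ and 0.060 RPKM in C/C (59 reads in Δ/Δ and 12 in C/C), a ratio of 4.35 (1.81 to 13.0). An overlap with another gene limits that value.

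Chpt1, a lipid synthesis gene on the other strand, shares 50.4% of the 50-base windows of this Sycp3 transcript, and it measured 5.32 RPKM in Δ/Δ and 4.77 RPKM in C/C. The strand setting of the counting was not given, so reads in the shared stretch could not be assigned. The 2 Sycp3 transcripts that share less of their length (35.8% and 44.5%) had higher ratios, 10.9 and 10.6, from 36 reads in Δ/Δ and 3 reads in C/C each, with an interval of 1.90 to 70.6 for both. Sycp2, a partner of Sycp3 in the axis, had 8 reads in Δ/Δ and 4 in C/C. Hormad1 and Sycp1, the transverse filament protein, were listed at 0 in both libraries.

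Meiotic cohesin held the member of highest RPKM in Δ/Δ, whereas Zcwpw1 was the highest in C/C. Stag3, the meiotic STAG subunit (chr5:138280240-138312393), measured 24.6 RPKM in Δ/Δ and 12.4 RPKM in C/C over its short transcript of highest mean RPKM (ENSMUST00000160849, 458 bases). That ratio of 1.97 (1.77 to 2.2) lay just below the 2-fold limit, and the gene was not called. The other 8 Stag3 transcripts all exceeded 2-fold, from 2.56 to 4.56. The full coding transcript (ENSMUST00000048028, 4211 bases) measured 17.1 RPKM in Δ/Δ and 6.69 RPKM in C/C, with 13939 reads in Δ/Δ and 4807 in C/C and a ratio of 2.56 (2.44 to 2.68). The call on Stag3 therefore depends on which transcript stands for the gene.

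Smc1b, the meiotic SMC1 (ENSMUST00000023068, chr15:85064689-85131964), measured 0.035 RPKM in Δ/Δ and 0.006 RPKM in C/C, from 27 reads in Δ/Δ and 4 in C/C. Its ratio was 5.83 (1.42 to 56.0) and it was called higher. Rec8, the meiotic kleisin, measured 0.122 RPKM in Δ/Δ and 0.062 RPKM in C/C from 9 reads in Δ/Δ and 4 in C/C on a short transcript of 381 bases, too few for a call. Its full coding transcript (ENSMUST00000002395, 2184 bases) measured 0.038 RPKM in Δ/Δ and 0.032 RPKM in C/C, from 16 reads in Δ/Δ and 12 in C/C, a ratio of 1.19 (0.358 to 4.12), within the 2-fold rule. The mitotic counterparts were abundant and none was called, with Smc1a at 64.5 RPKM in Δ/Δ and 71.2 RPKM in C/C. Stag1 measured 39.7 RPKM in Δ/Δ and 37.9 RPKM in C/C, and Stag2 53.4 RPKM in Δ/Δ and 45.8 RPKM in C/C. On the RPKM scale, Stag3 lay below both in either library, and Smc1b lay far below Smc1a. The Stag1 and Stag2 values come from short transcripts of 583 and 774 bases, as does that of Stag3, so they do not rank the whole genes.

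**Figure D3:**
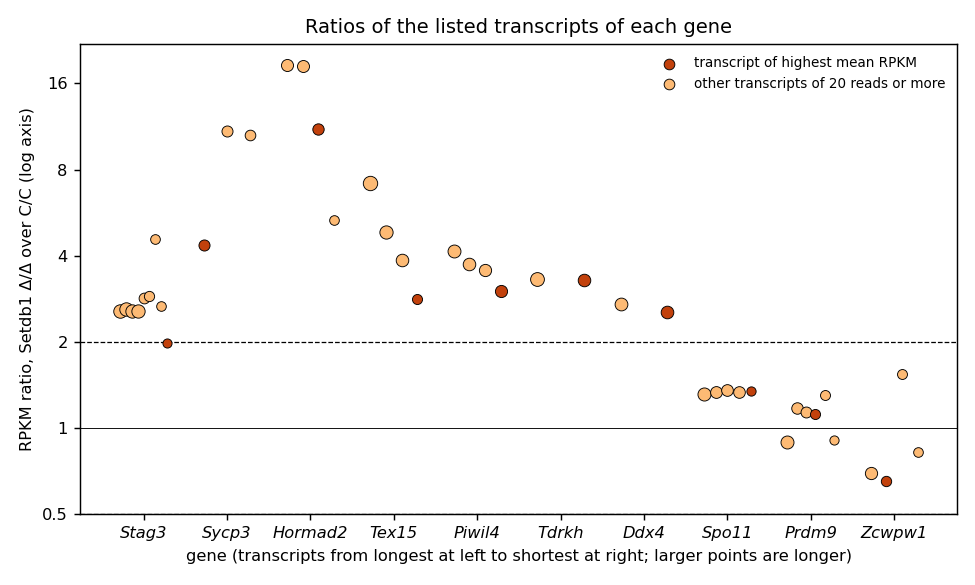
RPKM ratio of Setdb1 Δ/Δ over Setdb1 C/C for each transcript with 20 reads or more and a value above 0 in both libraries, for 10 members; dashed lines mark 2-fold higher and lower. Of the 9 Stag3 transcripts, the dark point, which stood for the gene, is the only one under 2-fold, while the Spo11 transcripts sit together between 1.31 and 1.35.

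The recombination genes were mixed, and they included 3 of the 4 members at 1 RPKM or more in C/C. Dmc1, the meiotic strand exchange protein (ENSMUST00000023065, chr15:79561497-79605109), measured 0.937 RPKM in Δ/Δ and 0.278 RPKM in C/C, with 402 reads in Δ/Δ and 105 in C/C and a ratio of 3.37 (2.46 to 4.62). Tex15, needed for double-strand break repair and transposon silencing in mouse spermatocytes (ENSMUST00000149399, chr8:33516738-33585582), measured 0.257 RPKM in Δ/Δ and 0.091 RPKM in C/C. Its 35 reads in Δ/Δ and 11 in C/C gave a ratio of 2.82 (1.01 to 8.15), and its longest transcript of 8405 bases gave 7.20 (2.25 to 25.1) from 58 reads in Δ/Δ and 7 in C/C.

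Spo11, the meiotic DNA-cutting enzyme, measured 3.62 RPKM in Δ/Δ and 2.69 RPKM in C/C, and its 5 transcripts had ratios between 1.31 and 1.35. Prdm9, the histone methyltransferase that places meiotic breaks, measured 2.73 RPKM in Δ/Δ and 2.43 RPKM in C/C, and its 6 transcripts ran from 0.888 to 1.30. Neither gene was called by any of its transcripts. Zcwpw1, a reader of the marks that PRDM9 leaves, was lower in Δ/Δ at 11.7 RPKM than in C/C at 18.0 RPKM, a ratio of 0.650 (0.597 to 0.709). That was short of the 2-fold rule, and its 4 transcripts ran from 0.650 to 1.54. Pilra, on the other strand, shares 16% of the 50-base windows of this transcript and measured 1.47 RPKM in Δ/Δ and 1.77 RPKM in C/C.

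Mei1, required for meiotic break formation in mice, was the nearest to a call in the lower direction, at 0.040 RPKM in Δ/Δ and 0.078 RPKM in C/C (31 reads in Δ/Δ and 53 in C/C), a ratio of 0.513 (0.263 to 1.01). Meiob, a single-strand DNA binding protein of meiosis, was listed at 0 in Δ/Δ and had 8 reads in C/C. That was 3.20-fold lower in Δ/Δ against the floor of 3 reads, which is not a counting interval. Meiob had too few reads for a call and no interval, so a difference beyond counting error was not shown.

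Among the germ cell regulators, Meioc is a partner of the RNA helicase YTHDC2 in meiotic prophase (ENSMUST00000155813, chr11:102663716-102682237). Its non-coding transcript of 647 bases measured 0.248 RPKM in Δ/Δ with 31 reads and was listed at 0 in C/C. That was 9.13-fold higher in Δ/Δ for that transcript against the floor of 3 reads, which is not a counting interval. The longest Meioc transcript, which is protein-coding (4573 bases), was present in both, at 0.102 RPKM in Δ/Δ and 0.022 RPKM in C/C. Its 90 reads in Δ/Δ and 17 in C/C gave a ratio of 4.64 (2.13 to 10.3). That interval includes 9.13, so the ratios of these transcripts were not shown to differ. A further protein-coding transcript (1726 bases) measured 0.111 RPKM in Δ/Δ with 37 reads and was listed at 0 in C/C. Because the longest transcript had reads in C/C, the value of 0 in C/C does not hold for the gene as a whole. Ythdc2, the partner, measured 4.48 RPKM in Δ/Δ and 4.05 RPKM in C/C and was not called. Stra8, which starts meiosis in response to retinoic acid, had 4 reads in Δ/Δ and 0 in C/C, and Dazl, a germ cell RNA-binding protein, had 8 in Δ/Δ and 5 in C/C. Both were at or near the detection limit in both libraries.

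The last 4 members had few or no reads. Tuba3a, a testis tubulin, had 14 reads in Δ/Δ and 1 in C/C, a ratio of 12 with an interval of 0.794 to 279, and 35.3% of its 50-base windows also occur in other genes, Tuba3b above all. Tex101, a surface protein of germ cells, had 1 read in Δ/Δ and 3 in C/C. Slc25a31, a germ cell ADP/ATP carrier, and Dpep3 were listed at 0 in both libraries. Over all 37 members, 8 were listed at 0 in both libraries and 11 had 1 to 19 reads on the transcript that stands for the gene.

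**Figure D4:**
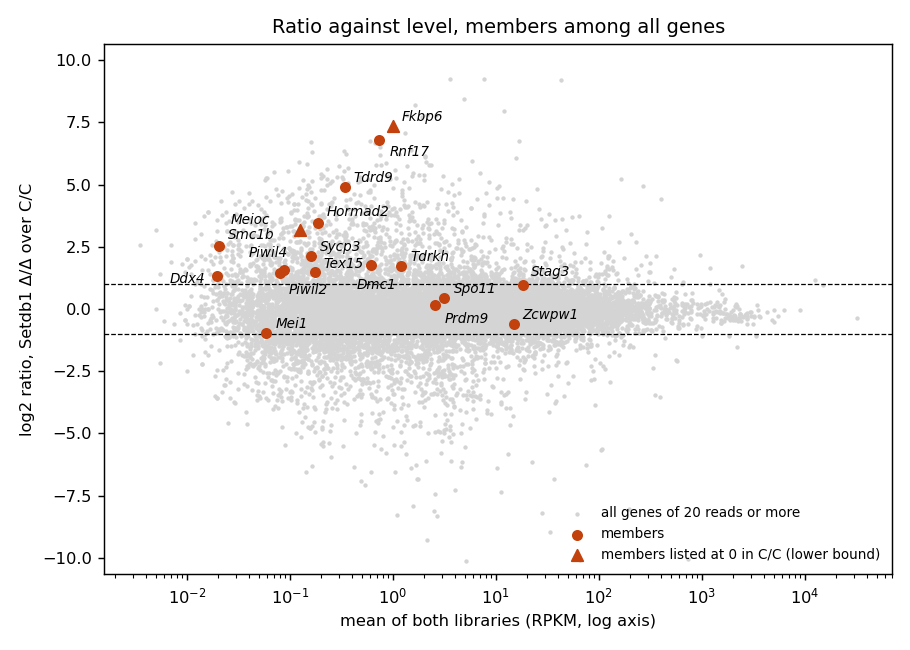
Log2 RPKM ratio of Setdb1 Δ/Δ over Setdb1 C/C against mean RPKM for 17180 genes with 20 reads or more and a value above 0 in both libraries (grey), with the 18 members that had 20 reads or more in colour and 2-fold marked by dashed lines. Triangles mark the transcripts that stand for Fkbp6 and Meioc, listed at 0 in C/C, at their ratios over a floor of 3 reads. The 4 members with the highest levels lie within 2-fold.

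The members lie on 16 chromosomes, with at most 4 on 1 chromosome. The 13 genes called higher have 26 nearest neighbours, taken among listed genes only, so an unlisted gene can lie nearer. Of these, 17 had 20 reads or more, with 2 called higher, 0 lower and 15 neither. Among all genes, 11.4% were called higher and 12.1% lower. Amotl1, beside Piwil4, measured 22.8 RPKM in Δ/Δ and 10.1 RPKM in C/C, and Mybpc1, beside Sycp3, 0.952 RPKM in Δ/Δ and 0.253 RPKM in C/C. The genes beside the members with the highest ratios were not called: Fzd9, beside Fkbp6, measured 3.78 RPKM in Δ/Δ and 7.04 RPKM in C/C, and Cenpj, beside Rnf17, 4.30 RPKM in Δ/Δ and 3.73 RPKM in C/C. Atp5mpl, beside Tdrd9, measured 244 RPKM in Δ/Δ and 250 RPKM in C/C.

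Rd3l, which lies within Tdrd9 on the other strand, was called lower at 0.816 RPKM in Δ/Δ and 4.81 RPKM in C/C, a ratio of 0.170. Ribc2 starts 114 bases from Smc1b in the opposite direction and was listed at 0 in both libraries. Gpc2, which starts 235 bases from Stag3 in the opposite direction, measured 4.0 RPKM in Δ/Δ and 3.52 RPKM in C/C, a ratio of 1.14. Neither of these divergent neighbours was called higher. Tdrkh (chr3:94413273-94434668) and Hormad1 (chr3:95559677-95587671) lie 0.889 and 0.202 megabases from Setdb1 (chr3:95323525-95357202), the gene that differs between the genotypes. The nearest neighbours of Tdrkh, the lincRNA 1700040D17Rik and Mrpl9, had ratios of 0.882 and 0.848.

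**Figure D5:**
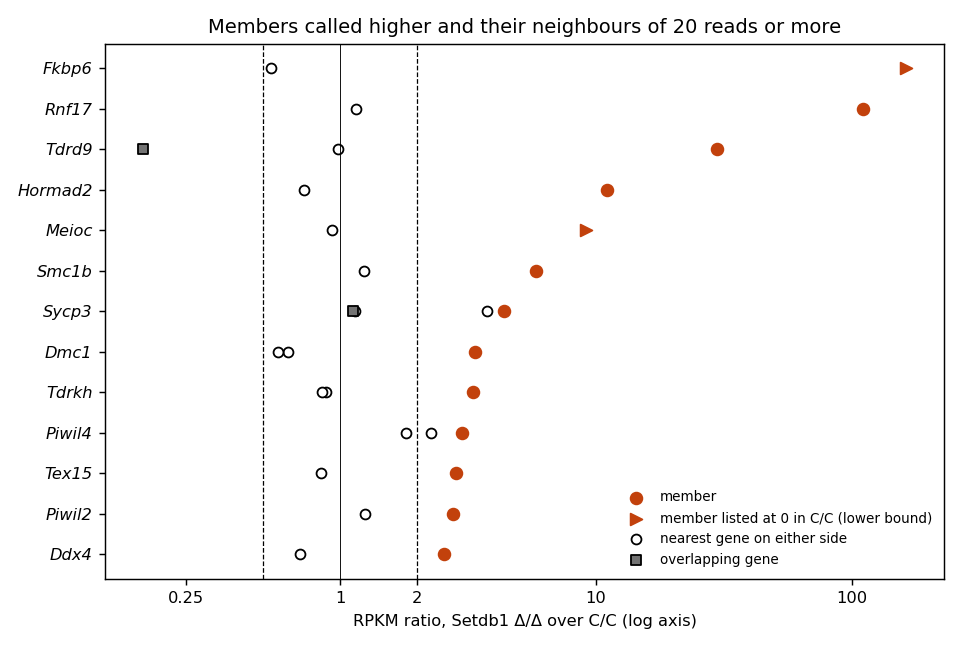
RPKM ratio of Setdb1 Δ/Δ over Setdb1 C/C on a log axis for the 13 members called higher (coloured), their nearest genes on either side (open circles) and overlapping genes (squares), where these had 20 reads or more and a value above 0 in both libraries. One neighbour each of Piwil4 and Sycp3 lies beyond 2-fold higher, and Rd3l within Tdrd9 lies furthest to the left.

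A wider list of 83 other germline and meiosis genes, 71 of them listed, was read in the same way. It too was chosen with earlier results of these data known, so its counts measure no tendency either. Of 44 with 20 reads or more, 13 were called higher in Δ/Δ, 7 lower and 24 neither, against the 11.4% and 12.1% of all genes. Of these, 28 were protein-coding genes with a mean under 1 RPKM, with 10 higher and 6 lower, against 26.6% and 22.6% of all such genes. Of the 13 called higher, 8 had fewer than 20 reads in C/C. Boll and Ythdc2, described above as relatives, are also on this list. The 8 highest were Tex11, Usp26 and Xlr on the X chromosome and the autosomal Rpl39l, Tex19.2, Ccdc36, Msh4 and 4930447C04Rik. Xlr measured 2.27 RPKM in Δ/Δ and 0.030 RPKM in C/C, and Usp26 0.045 RPKM in Δ/Δ and 0.003 RPKM in C/C. Tex11 measured 0.134 RPKM in Δ/Δ with a value of 0 in C/C, 24.8-fold higher against the floor of 3 reads. The 3 were also the X-linked genes of the list that were called higher, of 4 with enough reads, in libraries that differ in Xist as given above.

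Rpl39l, a testis paralogue of the ribosomal protein gene Rpl39, measured 13.7 RPKM in Δ/Δ and 0.309 RPKM in C/C, a ratio of 44.3 (25.8 to 77.0). Tex19.2 measured 0.114 RPKM in Δ/Δ and 0.003 RPKM in C/C, where it had 1 read, a ratio of 38.0 (3.30 to 837). Of the meiotic genes, Ccdc36, which helps to form double-strand breaks, measured 0.764 RPKM in Δ/Δ and 0.131 RPKM in C/C, a ratio of 5.83 (3.96 to 8.53). Msh4, a crossover protein, measured 0.168 RPKM in Δ/Δ and 0.032 RPKM in C/C, a ratio of 5.25 (2.59 to 12.2). The gene 4930447C04Rik had 20 reads in Δ/Δ and 0 in C/C, 5.89-fold higher against the floor of 3 reads.

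The 4 lowest were Hspa2, Ddx25, Rec114 and Nanos2. Hspa2, a chaperone of spermatocytes, measured 4.14 RPKM in Δ/Δ and 11.2 RPKM in C/C, a ratio of 0.369 (0.342 to 0.397). Ddx25, a testis RNA helicase, measured 0.096 RPKM in Δ/Δ and 0.238 RPKM in C/C, Rec114, a partner in break formation, 0.172 RPKM in Δ/Δ and 0.425 RPKM in C/C, and Nanos2, a regulator of male germ cells, 0.050 RPKM in Δ/Δ and 0.110 RPKM in C/C, a ratio of 0.455 (0.173 to 1.18). The intervals of Hsf2bp and Gm960, both called lower at a ratio of 0.5, also included 1. The count called lower was 4 in place of 7 under each of 3 other scalings of the libraries.

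A list of chromatin regulators held repressors of germline genes and also Tet1, Tet2 and Tet3, which oxidise methylated cytosine. Of 33 listed, all with 20 reads or more, 2 were called higher, 3 lower and 28 neither, against 11.4% higher and 12.1% lower of all genes. Of the PRC1.6 subunits, E2f6 measured 9.80 RPKM in Δ/Δ and 8.90 RPKM in C/C, Mga 19.4 RPKM in Δ/Δ and 18.0 RPKM in C/C, and Max 28.2 RPKM in Δ/Δ and 29.5 RPKM in C/C. Dnmt1, the maintenance DNA methyltransferase, measured 107 RPKM in Δ/Δ and 141 RPKM in C/C. Resf1, which works with SETDB1 in retroelement silencing, measured 81.2 RPKM in Δ/Δ and 6.64 RPKM in C/C, a ratio of 12.2 (11.8 to 12.7). Hdac2, a histone deacetylase, measured 84.4 RPKM in Δ/Δ and 33.4 RPKM in C/C, a ratio of 2.53, over a non-coding transcript of 539 bases. Atf7ip, a partner that stabilises SETDB1, measured 24.0 RPKM in Δ/Δ and 12.2 RPKM in C/C, a ratio of 1.96 just under the rule. Tet1 was called lower at 0.323 RPKM in Δ/Δ and 1.88 RPKM in C/C. Zbtb32 and Scml2, both under 1 RPKM, were the other 2 called lower.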

How the data were processed

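RNA was measured in 2 libraries. Per the labels' protocols, ribosomal RNA was removed from total RNA, TruSeq libraries were made, and 101-base paired reads were sequenced. The deposited table holds 1 RPKM value per Ensembl transcript and library, rounded by the authors to 3 decimals. TopHat2 2.0.9, bedtools and the builds mm9 and mm10 are named in the submitters' processing notes; this table's build, annotation and strand setting were not given in the sources used here. Columns headed Del and Wt were read as Δ/Δ and C/C.

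Transcripts were named from GENCODE M21 (GRCm38), which matched 95.8% of 93615. Depth was recovered because an RPKM value times transcript length is a whole multiple of the value of 1 read: 96.1% of low values in Δ/Δ and 96.8% in C/C lay within 0.1 read of a whole number. More transcripts had 2 reads than 1, so an interval counts 2 reads as 1 fragment. Intervals are exact 95% intervals for the ratio of Poisson rates (scipy 1.17.1). The counting rules were tested on simulated data. Members and gene lists were chosen with earlier results of these data known. The text names every member, the 8 highest and 4 lowest other germline genes, relatives paired with a member called higher (1 is not reported here), and, of the chromatin regulators at 1 RPKM or more, the 4 with the largest log2 ratio in either direction; E2f6, Mga, Max, Dnmt1, Zbtb32, Scml2, Tet2, Tet3, Hsf2bp, Gm960, Kit, Tuba3b, Zcwpw2, Dpep1, Boll, Dpep2, Stag1 and Stag2 were named after their values were seen. Shared 50-base windows were counted between GENCODE transcripts. The promoter window nearest the start of the longest protein-coding transcript was used. Other minimum reads, folds, pseudocounts, filters, scalings and transcript choices were tried. Older symbols stand for some listed genes, and 12 names of the wider list and 1 regulator name matched no row.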

Additional observations from a re-analysis of the deposited data

How the results depend on the processing

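No paired analysis was possible because each genotype had 1 library, and for the same reason no replicate could be left out. The 13 members called higher all kept that call under 3 other scalings and 3 other transcript choices, and Stag3 joined them under 5 of these 6 settings. A 4-fold rule left 7 members higher. The count of members called higher was 9 with a minimum of 50 reads and 18 with a minimum of 1. The count of members called lower was 2 with a minimum of 1 read and 2 with a 1.5-fold rule, against 0. Requiring that the counting interval exclude 1, chosen after seeing the data, left 10 higher. The count was 12 with Fkbp6 and Meioc, which have no interval and were kept by the floor of 3 reads. Of the other germline genes, the count called higher was 8 with a minimum of 50 reads and 21 with a minimum of 1. The count called lower was 0 with a 4-fold rule, 11 with a 1.5-fold rule, and 4 when the libraries were centred on the median ratio, brought to a common RPKM sum, or to that sum without the 20 most abundant genes. On autosomes, also chosen after seeing the data, 10 were higher and 7 lower. Centring shifts all log2 ratios by 0.10. No ratio of a called member, relative or chromatin regulator changed direction under the other scalings and transcript choices. For relatives and regulators, called or not, 151 such ratios moved outside the counting interval and 197 stayed within it. For members, 4 moved outside it and 134 stayed within it. Depth limits the 19 members with fewer than 20 reads on the transcript that stands for the gene; of these, Rec8 reached 20 reads on 2 other transcripts, at ratios of 1.19 and 1.24.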
